A study of Homo sapiens with 12 samples.

Results

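Genes that report on or restrain canonical Wnt signalling were examined in A549 cells: the nuclear factors LEF1, TCF7 and TCF7L2, the feedback targets AXIN2, NKD1, RNF43, LGR5 and TNFRSF19, the secreted antagonist DKK1 and the cyclin gene CCND1. The members were all probe sets (groups of short probes on the array that together measure one transcript) whose gene symbol in the platform's annotation was exactly 1 of these 10 names. This gave 26 probe sets in 9 of the 10 genes, out of 54613 probe sets besides the controls and 19775 genes with a probe set of their own. No probe set had TCF7 as its only symbol in that annotation, so TCF7 was not analysed here. Whether a probe set with several symbols names TCF7 was not examined.

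A549 is a human lung adenocarcinoma line. A 90 min incubation with the DNA dye Hoechst 33342 (5 µg/ml) was followed by sorting into a side population (SP), which keeps little dye because it pumps it out, and the remaining non-SP cells. Before the sort, cells were either left without antibody or given a monoclonal antibody against EpCAM, an epithelial surface protein, for 48 h (100 µg/ml). In the labels the antibody appears as anti-mouse EpCAM, although the cells are human. Total RNA of the 4 groups (untreated non-SP, untreated SP, anti-EpCAM non-SP and anti-EpCAM SP) was measured on 12 Affymetrix arrays, 3 biological replicates per group. Replicates were drawn from 1 cell line, so their spread is that of cultures and of array work, and the number of arrays limits the precision. In such sorted fractions, fewer cells that express a gene and less RNA per cell cannot be told apart.

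In canonical Wnt signalling, a Wnt protein bound to a Frizzled and LRP receptor stops a complex built on axin from destroying β-catenin. β-Catenin then enters the nucleus and joins the TCF and LEF factors on DNA. Among the genes they turn on are brakes on the pathway itself: AXIN2 rebuilds the destruction complex, NKD1 binds Dishevelled, RNF43 removes Frizzled from the surface, and DKK1 blocks the LRP co-receptors from outside the cell. LGR5 is a receptor for R-spondins, which counter RNF43, and TNFRSF19 (TROY) is a receptor of the TNF receptor family known as a Wnt target. CCND1 encodes cyclin D1, which drives cells through G1 and answers to many pathways besides Wnt.

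The DKK1 promoter is shown because DKK1 had the highest level rank of all member probe sets. Its window was also the only one of the 11 found for the members to hold CTTTGAT or CTTTGAA, the TCF/LEF motifs searched. Other forms were not searched. The letters of 1 of them, CTTTGTT, occur on either strand in windows of DKK1, TCF7 and TCF7L2. RefSeq promoter windows of build GRCh38.p14 were found for 6 of the 10 genes (DKK1, LEF1, TCF7, TCF7L2, RNF43 and TNFRSF19), 11 windows in all. The 250 bases before the start were searched on both strands for CTTTGAT and CTTTGAA, which overlap no other motif searched. The window of DKK1 lies on the plus strand at chr10:52314031-52314280, immediately before the start of the gene, with the match in capitals.
DKK1 promoter: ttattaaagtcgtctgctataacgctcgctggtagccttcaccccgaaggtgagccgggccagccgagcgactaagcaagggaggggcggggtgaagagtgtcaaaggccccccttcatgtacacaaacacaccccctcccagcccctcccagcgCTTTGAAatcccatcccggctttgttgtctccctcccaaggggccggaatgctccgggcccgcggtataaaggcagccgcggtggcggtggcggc
The match reads in the direction of the gene and begins 95 bases before the start. Of all 35116 windows of the same length, 2086 (5.94%) held at least 1 match, so a match is a description of the letters and not a site of binding. No match in a window says only that these letters are not in it.

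Levels are log2 values of Affymetrix signal after quantile normalisation over the 12 arrays. A probe set was tested where its mean over the arrays exceeded 5.39, the 40th percentile of all probe sets, which left 32768 of them. Of the 26 member probe sets, 21 in 8 genes passed this filter; both of LGR5, 2 of the 3 of LEF1 and 1 of the 3 of TNFRSF19 did not. Percentiles below rank a probe set's mean among all probe sets on the array; since probes differ in how brightly they bind, they do not compare transcript amounts between genes.

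The sort and the cell identity were checked first. ABCG2, the pump that expels Hoechst dye, was higher in SP than in non-SP in 6 of 6 pairs, by 0.47 ± 0.06 (log2, SE; limma adjusted p = 0.0253); EPCAM differed by 0.25 ± 0.06 (adjusted p = 0.120). Without any 1 pair other than anti-EpCAM replicate 1, the adjusted p of ABCG2 lay between 0.0727 and 0.143. All 7 epithelial markers passed the filter, 6 of them at percentile 89.0 or above and CLDN4 at 51.4, with summed linear signals of 43024.7 to 56005.1 over the arrays. Summed signals of the leukocyte, endothelial and fibroblast lists lay between 227 and 350. Of these, 3 of 4 leukocyte, 2 of 4 endothelial and 4 of 5 fibroblast genes with a probe set passed the filter. The leukocyte genes ranked from percentile 20.5 (PTPRC) to 63.0 (CD14), the endothelial from 11.8 (CDH5) to 61.6 (PECAM1) and the fibroblast from 35.3 (PDGFRA) to 56.9 (THY1). The SP array and its non-SP partner with equal treatment and number deviated together, with correlations of 0.510 to 0.861, so the fractions were compared within these 6 pairs.

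**Figure D1:**
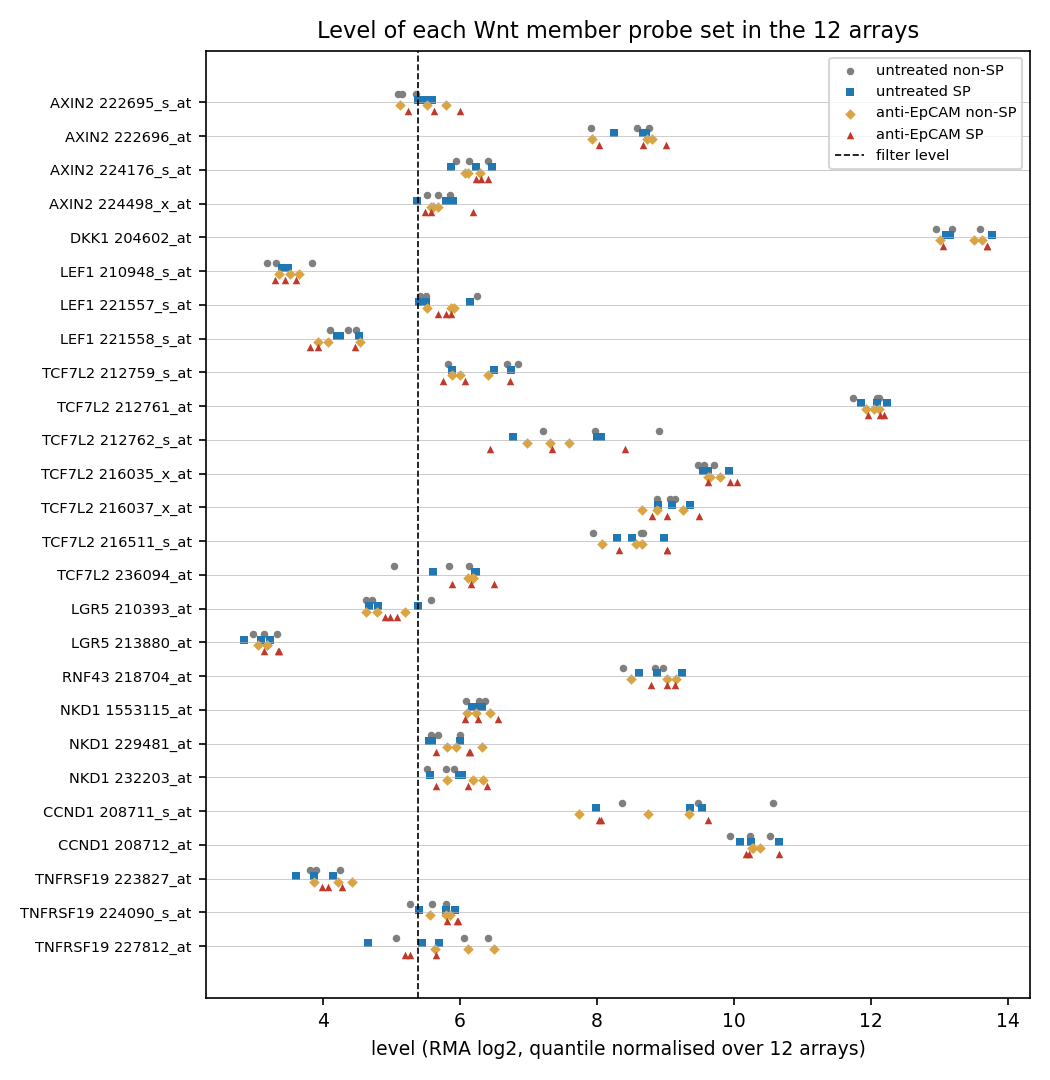
Level of each member probe set (log2, horizontal axis) on the 12 arrays, coloured by group. DKK1 lies near 13 on every array, CCND1 208711_s_at and TCF7L2 212762_s_at spread the most, and both LGR5 probe sets have their mean left of the filter level.

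DKK1 was the member with the highest level. Its single probe set 204602_at read 12.95, 13.19 and 13.60 in untreated non-SP cells and 13.10, 13.16 and 13.78 in untreated SP cells. With anti-EpCAM, non-SP cells read 13.01, 13.63 and 13.51 while SP cells read 13.06, 13.70 and 13.70. The 4 groups overlapped, their means ran from 13.24 ± 0.33 (SD, n = 3) in untreated non-SP to 13.49 ± 0.37 (SD, n = 3) in anti-EpCAM SP cells, and the mean over all arrays ranked at percentile 99.4. SP cells were higher in 5 of 6 pairs, by 0.10 ± 0.05 (SE; 95% interval −0.027 to 0.23; limma adjusted p = 0.447). The pairs themselves were further apart than the fractions: the pair means of DKK1 spanned 0.66, and the largest SP minus non-SP difference in a pair was 0.18.

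No member probe set passed the test for SP minus non-SP over the 6 pairs (limma, Benjamini-Hochberg over all 32768 probe sets, adjusted p under 0.05). The background was 200 of 32768 called, or 0.61%, of which 57 (0.174%) were higher and 143 (0.436%) lower in SP cells. At an unadjusted p under 0.05 there were 3 of 21 member probe sets, against 4746 of all probe sets, or 14.5%. The 21 differences were positive in 16 and negative in 5, while 53.2% of all probe sets were positive. The members' median was 0.072, against 0.0085 over all probe sets. The 21 are not independent: TCF7L2 gave 7 of them, 6 positive, and AXIN2 gave 4, all positive. The same sign in all 6 pairs was seen for 2 of the 21, AXIN2 222695_s_at and TNFRSF19 224090_s_at, and for 10.2% of all probe sets. The count of 200 rested on single pairs: it was 0 without untreated replicate 1, 2 or 3 or anti-EpCAM replicate 2, 8 without anti-EpCAM replicate 3, and 329 without anti-EpCAM replicate 1.

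**Figure D2:**
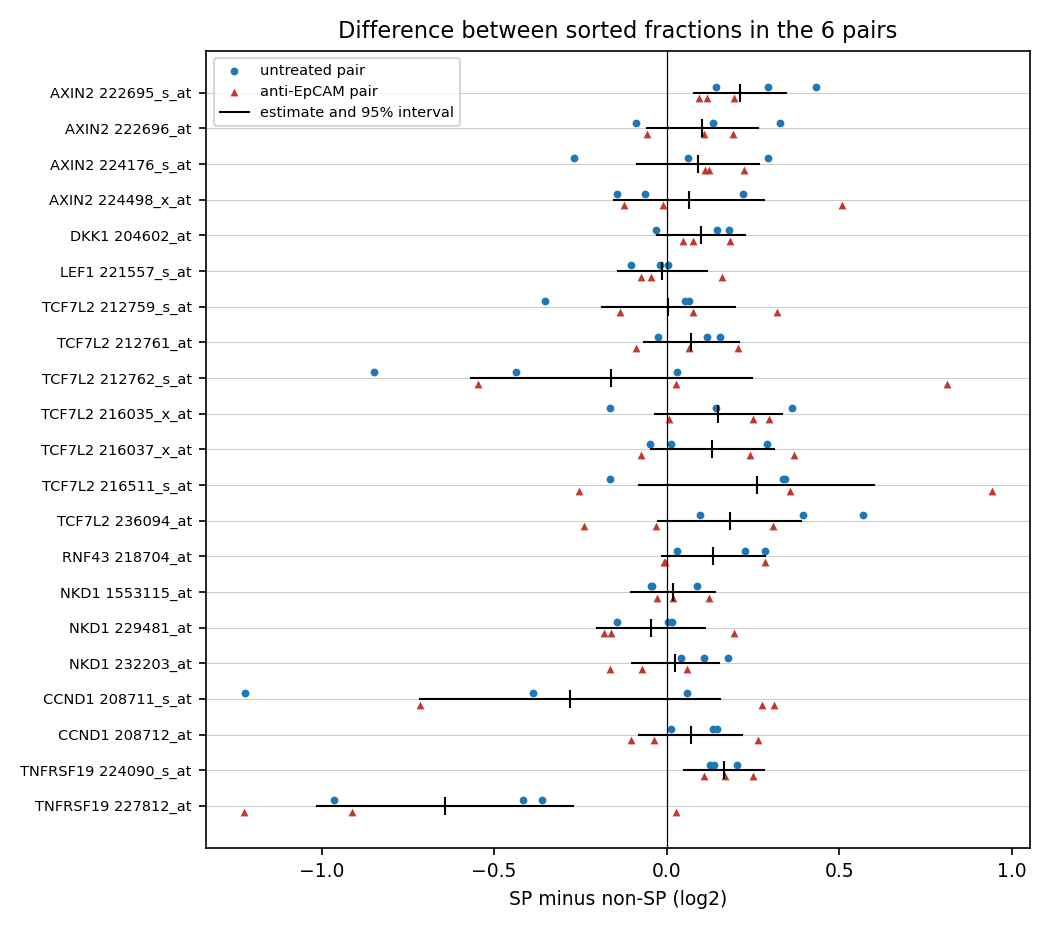
SP minus non-SP (log2, horizontal axis) for the 21 member probe sets past the filter: circles are the 3 untreated pairs, triangles the 3 anti-EpCAM pairs, and the bar is the estimate with its 95% interval. The interval of TNFRSF19 227812_at lies below 0 and those of AXIN2 222695_s_at and TNFRSF19 224090_s_at above 0, and none of these passed after adjustment.

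TNFRSF19 had the largest difference of any member, and its probe sets disagreed. Probe set 227812_at read 5.07, 6.06 and 6.41 in untreated non-SP cells and 4.66, 5.70 and 5.45 in untreated SP cells. With anti-EpCAM, non-SP cells read 5.63, 6.12 and 6.50 while SP cells read 5.66, 5.20 and 5.27. SP cells were lower in 5 of 6 pairs, by up to 1.23 in anti-EpCAM replicate 3, while anti-EpCAM replicate 1 differed by only 0.03. The estimate was −0.64 ± 0.16 (SE; fold 0.641; 95% interval −1.01 to −0.27; unadjusted p = 0.0041, limma adjusted p = 0.138), and without anti-EpCAM replicate 1 it was −0.82 ± 0.11 with an adjusted p of 0.0349. The 3′ minus 5′ signal of the actin control, a measure of RNA integrity, differed by 1.79 (log2) in anti-EpCAM pair 1 and −2.05 in pair 3. These pairs had the extreme differences of this probe set. Untreated pair 3 and anti-EpCAM pair 2 differed by −0.97 and −0.91, with actin differences of −0.35 and 0.30. With the 3′ minus 5′ signal of the GAPDH control as a covariate the estimate was −0.74 ± 0.14 (limma adjusted p = 0.0911). The part of the actin signal in the result was not tested. By treatment the estimate was −0.58 ± 0.23 in untreated and −0.70 ± 0.23 in anti-EpCAM pairs.

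Probe set 224090_s_at of the same gene pointed the other way. It read 5.80, 5.28 and 5.59 in untreated non-SP and 5.93, 5.40 and 5.80 in untreated SP cells, then 5.86, 5.57 and 5.80 in anti-EpCAM non-SP and 5.97, 5.82 and 5.97 in anti-EpCAM SP cells. Within each pair the SP array was the higher, by 0.11 to 0.25, although the groups overlapped. The estimate was 0.17 ± 0.05 (SE; 95% interval 0.050 to 0.28; limma adjusted p = 0.205). The dim probe set 223827_at, fitted without the filter, gave −0.08 ± 0.06 (adjusted p = 0.664). Both tested probe sets were near the filter level, at percentile 46.3 and 44.7, and the probe sets gave no single direction for TNFRSF19.

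**Figure D3:**
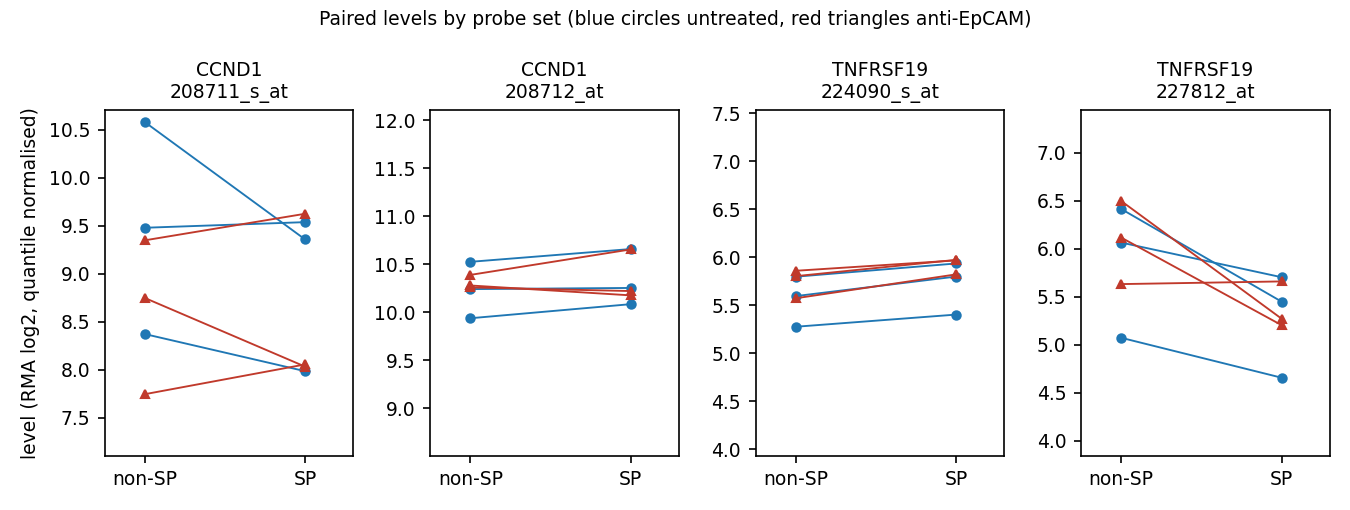
Level (log2, vertical axis) of the tested probe sets of CCND1 and TNFRSF19 in non-SP and SP cells, with a line joining the arrays of a pair (circles untreated, triangles anti-EpCAM); each panel spans the same height. The lines of TNFRSF19 227812_at slope down in 5 of 6 pairs and those of 224090_s_at up in all 6, and CCND1 208711_s_at spreads over a far wider range than 208712_at.

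CCND1 was measured by a steady and an unsteady probe set. Probe set 208712_at read 10.24, 9.94 and 10.53 in untreated non-SP, 10.26, 10.09 and 10.66 in untreated SP, 10.28, 10.26 and 10.39 in anti-EpCAM non-SP and 10.18, 10.22 and 10.66 in anti-EpCAM SP cells. Its 12 values had an SD of 0.22 and ranked at percentile 91.7, and SP minus non-SP was 0.07 ± 0.06 (SE; 95% interval −0.080 to 0.22; limma adjusted p = 0.664). Probe set 208711_s_at read 10.58, 9.48 and 8.37 in untreated non-SP, 9.36, 9.54 and 7.99 in untreated SP, 9.35, 8.75 and 7.75 in anti-EpCAM non-SP and 9.63, 8.03 and 8.06 in anti-EpCAM SP cells. Its SD over the arrays was 0.88, and the 4 groups overlapped.

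For 208711_s_at the 6 pairs split evenly in sign, from −1.22 in untreated replicate 1 to 0.31 in anti-EpCAM replicate 3. The estimate was −0.28 ± 0.19 (SE; 95% interval −0.72 to 0.16; limma adjusted p = 0.539), −0.52 ± 0.27 in untreated and −0.04 ± 0.27 in anti-EpCAM pairs, with a difference between treatments of 0.47 ± 0.38 (adjusted p = 1.00). It moved to −0.10 without untreated replicate 1 and to −0.11 without anti-EpCAM replicate 2. The median of this probe set differed between arrays that a control for RNA integrity set apart, although the ranges overlapped. The 3′ minus 5′ signal of the actin control was 2.59 to 3.11 (log2) on 6 arrays and 0.954 to 1.42 on the other 6. The high arrays were untreated replicates 1 and 2 of both fractions, anti-EpCAM non-SP replicate 3 and anti-EpCAM SP replicate 1. The fractions therefore differed in the ratio by 1.79 in anti-EpCAM pair 1 and by −2.05 in pair 3, and by −0.35 to 0.30 in the other pairs. The median of 208711_s_at was 9.51 on the first and 8.21 on the second, with ranges of 7.75 to 10.58 and 7.99 to 9.35, while 208712_at had medians of 10.21 and 10.40. Within pairs, SP minus non-SP of 208711_s_at was 0.28 in anti-EpCAM pair 1 and 0.31 in pair 3, although the ratio changed in opposite directions there. The lowest value, 7.75, was on an array of high ratio. The part of the actin ratio in the result was not tested.

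The nuclear factors gave no called difference. TCF7L2, the main TCF factor of many epithelia, had 7 probe sets, all tested. The brightest, 212761_at, read 12.09, 12.13 and 11.75 in untreated non-SP, 12.24, 12.10 and 11.86 in untreated SP, 12.13, 11.93 and 12.05 in anti-EpCAM non-SP and 12.19, 12.13 and 11.96 in anti-EpCAM SP cells. All 12 values lay within a narrow band at percentile 97.7, and the SP minus non-SP estimate was 0.07 ± 0.06 (SE; 95% interval −0.067 to 0.21; limma adjusted p = 0.6252). The other 6 ranked between percentile 51.3 and 88.0. Their estimates were positive in 5 and negative in 1, 212762_s_at.

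Probe set 212762_s_at had the widest spread of the TCF7L2 probe sets, with an SD of 0.71 over the arrays. It read 8.91, 7.97 and 7.22 in untreated non-SP, 8.06, 8.00 and 6.78 in untreated SP, 7.60, 6.98 and 7.31 in anti-EpCAM non-SP and 8.41, 6.44 and 7.34 in anti-EpCAM SP cells. Pair differences ran from −0.85 to 0.81, and the estimate of −0.16 ± 0.18 (SE; 95% interval −0.57 to 0.25) had an adjusted p of 0.719. Its median was 8.03 on the arrays of high and 7.10 on those of low actin ratio. The largest positive estimate, 0.26 ± 0.15 (SE; 95% interval −0.079 to 0.60; adjusted p = 0.458), was that of 216511_s_at. This probe set was lower where the actin ratio was high, at 7.95 to 8.67 (median 8.31) against 8.57 to 9.02 (median 8.82) on the low arrays. It differed by −0.25 in anti-EpCAM pair 1, where the actin ratio was higher in SP, and by 0.94 in anti-EpCAM pair 3, where it was lower; the part of the ratio was not tested. For LEF1, which many adult epithelia barely express, 1 of 3 probe sets was tested. Its 221557_s_at ranged from 5.40 to 6.25 over the arrays at percentile 46.5, and SP minus non-SP was −0.01 ± 0.06 (SE; 95% interval −0.14 to 0.12; adjusted p = 0.940). The other LEF1 probe sets ranked at percentile 6.41 and 19.0.

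AXIN2 is often read as a general gauge of β-catenin activity. Its brightest probe set, 222696_at, read 7.92, 8.76 and 8.59 in untreated non-SP, 8.25, 8.67 and 8.72 in untreated SP, 7.93, 8.73 and 8.81 in anti-EpCAM non-SP and 8.03, 8.67 and 9.01 in anti-EpCAM SP cells. The groups overlapped throughout, at percentile 79.1, and SP minus non-SP was 0.10 ± 0.07 (SE; 95% interval −0.058 to 0.26; limma adjusted p = 0.540) with 4 of 6 pairs higher. Probe set 222695_s_at read 5.36, 5.10 and 5.16 in untreated non-SP, 5.50, 5.40 and 5.60 in untreated SP, 5.53, 5.13 and 5.80 in anti-EpCAM non-SP and 5.62, 5.25 and 6.00 in anti-EpCAM SP cells. Every pair had the higher value in SP, by 0.09 to 0.43, and without antibody the SP values all exceeded the non-SP values. How often all probe sets separate in this way was not counted. This probe set was dim, at percentile 41.2, and some of its values lay below the filter level. The estimate was 0.21 ± 0.06 (SE; 95% interval 0.080 to 0.35; adjusted p = 0.163). The 2 other AXIN2 probe sets gave 0.09 ± 0.08 and 0.06 ± 0.09, so all 4 estimates were positive and none passed. The last of these, 224498_x_at, was lower in SP in 4 of 6 pairs. Its 2 positive differences were 0.51 in anti-EpCAM replicate 2 and 0.22 in untreated replicate 3, so its pairs gave no single direction.

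RNF43, the ubiquitin ligase that clears Frizzled receptors, read 8.38, 8.96 and 8.85 in untreated non-SP, 8.61, 9.25 and 8.89 in untreated SP, 8.50, 9.15 and 9.03 in anti-EpCAM non-SP and 8.79, 9.14 and 9.02 in anti-EpCAM SP cells on its single probe set 218704_at. SP values exceeded their partners in all 3 untreated pairs and in 1 of the 3 anti-EpCAM pairs. The estimate over the 6 pairs was 0.14 ± 0.06 (SE; 95% interval −0.015 to 0.29; limma adjusted p = 0.388). NKD1 had 3 tested probe sets between percentile 48.9 and 55.6. Their SP minus non-SP estimates were 0.02, −0.05 and 0.03 (adjusted p 0.905, 0.801 and 0.867), so they disagreed in sign at sizes close to 0. LGR5, a marker of intestinal stem cells, was dim, with probe sets at percentile 31.9 and 1.93, and gave 0.05 ± 0.07 and 0.03 ± 0.05 in the fit without the filter (adjusted p 0.837 and 0.895).

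Neither treatment alone gave a call. In the untreated pairs 0 of 32768 probe sets (0%) passed, with 2700 at an unadjusted p under 0.05, and 3 of 21 member probe sets reached that unadjusted level. In the anti-EpCAM pairs 0 (0%) passed, with 2833 unadjusted and 2 of the members. The difference between the treatments was called for 0 (0%), with 535 unadjusted and 0 of the members.

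The antibody contrast was made within each fraction, 3 arrays against 3. In non-SP cells 0 of 32768 probe sets (0%) passed limma at an adjusted p under 0.05, with 692 at an unadjusted p under 0.05, and in SP cells 0 (0%) passed, with 437. No member probe set reached an unadjusted p under 0.05 in either fraction. None had groups that did not overlap, against 5.57% of all probe sets in the non-SP and 4.28% in the SP fraction. For DKK1, anti-EpCAM minus untreated was 0.14 ± 0.23 (SE; 95% interval −0.40 to 0.68) in non-SP and 0.14 ± 0.25 in SP cells. These intervals are wide next to the fraction contrast, where the pair was removed.

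CCND1 again gave opposite signs. Anti-EpCAM minus untreated for 208711_s_at was −0.86 ± 0.60 (SE; 95% interval −2.26 to 0.54) for the non-SP and −0.39 ± 0.54 for the SP fraction, and for 208712_at it was 0.07 ± 0.17 and 0.02 ± 0.20 (limma adjusted p = 1.00 for each). Without untreated replicate 1 the non-SP value of 208711_s_at was −0.31. In each fraction 2 of 3 untreated arrays and 1 of 3 anti-EpCAM arrays had the high actin ratio. The median of 208711_s_at was higher on the arrays of high ratio, although the ranges overlapped. In anti-EpCAM non-SP cells the array of high ratio read 7.75 and the others 9.35 and 8.75. In anti-EpCAM SP cells the array of high ratio read 9.63 and the others 8.03 and 8.06. The part of that ratio in the contrast was not tested. TCF7L2 was split 4 positive to 3 negative in both fractions, from −0.73 ± 0.40 for 212762_s_at to 0.50 ± 0.27 for 236094_at in non-SP cells. NKD1 was positive on all 3 probe sets in both fractions, at most 0.37 ± 0.19 for 232203_at in non-SP cells, and TNFRSF19 was positive on both tested ones, between 0.11 and 0.23. Over the 21 probe sets, 16 were positive in non-SP and 17 in SP cells, where 54.2% and 49.3% of all probe sets were. Several of the 21 measure the same gene and are not independent. On the deposited scale the median of all probe sets was itself shifted by 0.104 in non-SP and 0.083 in SP cells, against 0.016 and −0.002 after normalisation.

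**Figure D4:**
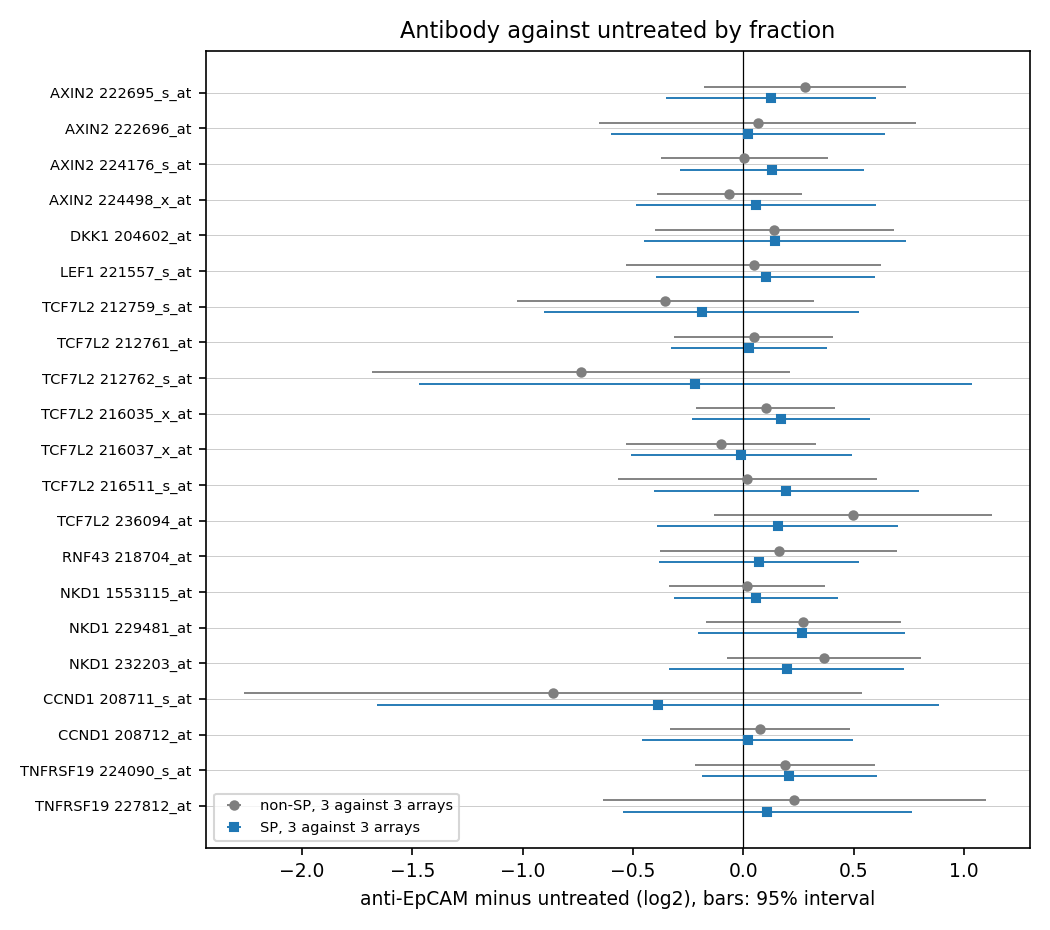
Anti-EpCAM minus untreated (log2, horizontal axis) for the 21 member probe sets in non-SP and SP arrays, each with its 95% interval from 3 arrays against 3. Every interval spans 0, and the widest are those of CCND1 208711_s_at and TCF7L2 212762_s_at.

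The rest of the pathway was read from 7 lists at 1 probe set per gene, the brightest. Tested on all probe sets, 1 listed gene passed for SP minus non-SP over the 6 pairs. This was MYC, a transcription factor and Wnt target, higher in 6 of 6 pairs by 0.38 ± 0.06 (SE; limma adjusted p = 0.0449). Its adjusted p lay between 0.0580 and 0.197 when any 1 pair was left out. Over all genes at 1 probe set each, 16 rose and 47 fell of 14650 (0.43%), and 52.3% were positive with a median of 0.0055.

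None of the 10 tested Wnt ligand genes, of 19 listed, passed; 3 were positive and 7 negative, with a median of −0.022, and WNT7A had the smallest p at 0.17 ± 0.08 (limma adjusted p = 0.391). Of the receptors and R-spondin genes 16 of 22 were tested, 6 positive and 10 negative, with a median of −0.038 and no call; the Frizzled receptor FZD5 differed by 0.23 ± 0.05 (adjusted p = 0.118) in 6 of 6 pairs. The 15 tested genes of the destruction complex, of 16, split 7 to 8 around a median of −0.0049 with no call. DVL3, a Dishevelled protein that relays the receptor signal, was lower in all 6 pairs by 0.26 ± 0.05 on one probe set (adjusted p = 0.0890), and its other probe set had the opposite sign. β-Catenin itself, CTNNB1, differed by 0.079 (adjusted p = 0.50).

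Among the 12 nuclear partners, all tested, 8 were positive and 4 negative with a median of 0.030 and no call; the co-repressor TLE4 gave 0.17 ± 0.06 (limma adjusted p = 0.274), and its other probe set had the opposite sign. Of the 15 secreted antagonists other than DKK1, 8 were tested, 3 positive and 5 negative, with a median of −0.023 and no call. DKK3, a relative of DKK1 with a less settled role in Wnt signalling, gave −0.36 ± 0.08 and was lower in all 6 pairs (adjusted p = 0.115). The 17 tested other target genes, of 20, were positive in 11 and negative in 6 with a median of 0.055, and held MYC as their only call. The 7 tested cyclin D partners, of 10, split 3 to 4 around −0.011 with no call; the cell cycle inhibitor CDKN1A gave −0.15 ± 0.08 (adjusted p = 0.441). In the same reading the members were positive in 7 of 8 genes with a median of 0.086, TNFRSF19 being represented by 224090_s_at and not by 227812_at, which had the largest negative estimate.

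**Figure D5:**
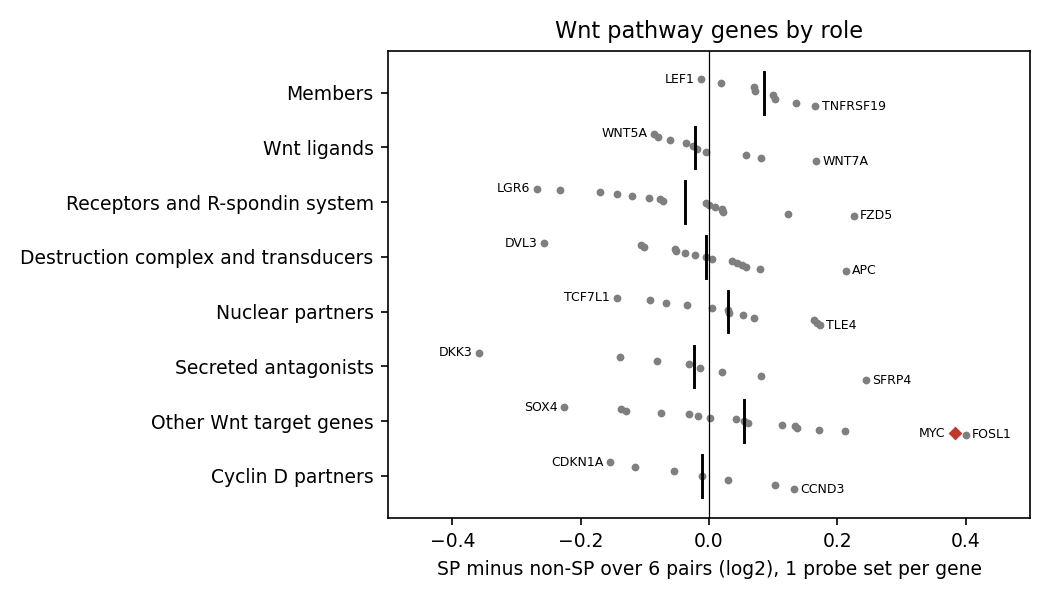
SP minus non-SP over the 6 pairs (log2, horizontal axis) for the members and 7 lists of pathway genes, 1 point per gene and a bar at each list's median. MYC (red diamond) is the 1 gene that passed the test; the lowest and highest gene of each list are named.

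For the antibody contrast, none of the genes on the 7 lists passed in either fraction. TCF7L1, a mostly repressive TCF factor, gave 0.54 ± 0.28 (SE) in the non-SP and 0.46 ± 0.19 in the SP fraction, with a limma adjusted p of 1.00 in both. The probe set annotated to the cell cycle inhibitor CDKN2A gave 0.29 ± 0.15 and 0.36 ± 0.21. It ranked at percentile 54.4, and whether its signal comes from CDKN2A transcript was not tested. The Wnt ligand with the smallest p was WNT4 in non-SP cells, at −0.28 ± 0.15, and WNT11 in SP cells, at −0.38 ± 0.21.

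The genes whose fraction pattern was most like a member's were found by Pearson r over the 12 arrays after removal of each pair's mean. The brightest probe set of each gene was used, among 14649 others. A steady shift in one direction raises such an r, so a high r need not mean that the pair differences varied together. For DKK1 they were TMEM203 (r = 0.995) and LINC02870 (r = 0.981), and for CCND1 LMAN2 (0.979) and PTMA (0.971). TCF7L2 was most like LMBRD1 (0.987) and CTNNA1 (0.982), and AXIN2 most like LINC01138 (0.982) and C19orf73 (0.975). RNF43 followed FAAH (0.973) and PRPF8 (0.965), NKD1 followed LINC01260 (0.958) and SMYD1 (0.950), LEF1 followed SPIRE1 (0.973) and ARF6 (0.967), and TNFRSF19 followed URB2 (0.996) and GCLC (0.992). These values describe 6 pairs that share their arrays and normalisation, and among so many genes some come close by the number compared.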

How the data were processed

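RNA of 12 arrays was analysed from the deposited table. Its values are log2 probe set signals that the authors made with RMA, per the submitters' processing notes; the RMA version and settings are not given in the sources used here. The deposited values appeared normalised only within pairs of the same treatment and number (mean distance of sorted values 0.00933 to 0.0215 within, 0.0458 to 0.525 between pairs), so they were quantile normalised over all arrays. Gene symbols came from the platform annotation: 41091 probe sets have 1 symbol, 1801 several and 11721 none. RefSeq promoter windows were of build GRCh38.p14.

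Probe sets whose mean exceeded the 40th percentile were tested with limma 3.58.1 in R 4.3.3, two-sided, with Benjamini-Hochberg adjustment over all of them and a threshold of 0.05. Fractions were compared on 6 within-pair differences. The pairing rests on shared numbers in the labels and on deviations that correlated at 0.510 to 0.861 in every pair. Treated and untreated arrays of a number were not paired. Their correlations were 0.475 to 0.669 for numbers 1 and 3, which overlaps the range of the pairs used, and −0.208 and −0.365 for number 2. Replicates 1, 2 and 3 were lowest in all 4 groups for 5, 3 and 1 of 21 member probe sets. The shares of all probe sets were 12%, 1.83% and 11.3%. Dim members were fitted without the filter. On simulated data the fraction test over the 6 pairs recovered most added changes. These were larger than most member estimates, whose median absolute size was 0.10, so the recovery does not apply to differences of that size. The antibody tests, with unpaired arrays, called none of the added changes, so an absent antibody call carries little weight.

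All probe sets of the members are named; from each list, those that passed or, where none did, the gene of smallest p; the 2 genes most like each member; ABCG2 and EPCAM. CTNNB1 was named after its value was seen, as was the split by actin ratio. The members and lists were chosen with earlier results of these data known.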

Additional observations from a re-analysis of the deposited data

Results flagged for a closer look

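The dim LGR5 probe set 213880_at was the only one of the 26 member probe sets whose pairs moved in opposite directions by treatment. How often all probe sets split in this way was not counted, so the split cannot be called unusual. SP minus non-SP was −0.10, −0.04 and −0.14 in the 3 untreated pairs and 0.17, 0.18 and 0.09 in the 3 anti-EpCAM pairs. The difference between treatments was 0.24 ± 0.11 (log2, SE; limma adjusted p = 1.00). The probe set ranked at percentile 1.93 of the array, below the filter, and the other LGR5 probe set had pairs of both signs in each treatment. Dixon's test over the 6 pair differences singled out no pair in the 21 member probe sets tested.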

How the results depend on the processing

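Across 17 alternatives, 1 member value changed its side of the threshold: TNFRSF19 227812_at without anti-EpCAM replicate 1. Of 3030 values past the threshold in neither setting, 284 had the opposite sign under the alternative. The count of 200 probe sets for SP minus non-SP over the 6 pairs became 353 with 1 probe set per gene, 45 with the GAPDH ratio as a covariate, 0 with a trend in limma's variance prior, 0 without the replicate block (the pairing), 0 without anti-EpCAM replicates 1 and 3 together, and 0 to 329 with 1 pair left out. With 1 probe set per gene the untreated pairs gave 11 calls and the anti-EpCAM pairs 33, against 0. A replicate block for the antibody contrast left its count at 0. MYC lost its call on the deposited values (adjusted p = 0.0512), without the filter (0.0508), with the trend (0.288), with the GAPDH covariate (0.0757) and without the replicate block (0.703); ABCG2 lost its call with the trend (0.288), the covariate (0.0550) and no block (0.264). DVL3 (0.0328), DKK3 (0.0340) and EPCAM (0.0497) passed over the 6 pairs with 1 probe set per gene. In that setting ABCG2 also passed in the anti-EpCAM pairs alone (0.0437). The causes were not tested. The number of arrays (3 a group) and the dim signal of LGR5, LEF1, TNFRSF19 and AXIN2 222695_s_at limit the precision there.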
